A study of Mus musculus with 4 samples.

Results

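NFIC peaks at the ends of transcripts and in 3′ untranslated regions (3′ UTRs) were 468 of the 15824 peaks in a list from mouse pancreas, or 2.96%. They were chosen by the class of genomic element that the authors' annotation gave each peak, and are called end peaks here. Of these, 289 were in the transcription termination site (TTS) class and 179 were in the 3′ UTR class. The annotation came from HOMER, which by default counts a peak centre from -100 to 1000 bp around the end of a transcript as TTS, and a centre from -1000 to 100 bp around a transcription start site (TSS) as promoter. The class therefore fixes where a peak lies, and positions are given below as a description.

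NFIC-bound chromatin was sequenced in 3 ChIP libraries from the pancreas of wild-type mice aged 8 to 12 weeks, beside 1 library of input DNA made without antibody. The age is that of the deposited description, and the paper gives a narrower range within it. All 4 libraries came from whole pancreas of mice whose strain is labelled mixed, with no treatment, mutant allele or transgene in the labels, so the peaks cannot be assigned to a cell type. The labels do not say whether the ChIP libraries came from separate animals. The deposited list merges them into 1 set of peaks of 173 bp each, with no value for a single library, so no spread between replicates could be given and the depth is unknown. Peaks of 1 list are not replicates, and every p-value and interval below covers counting error among peaks only.

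NFIC belongs to the nuclear factor I family, whose members bind DNA as dimers at a palindrome made of TGGC and GCCA separated by a short spacer, and can also bind a single arm of it. The end of a gene is where the nascent transcript is cut and polyadenylated, and the 3′ UTR before it holds signals for the stability and translation of the mRNA. A factor bound to DNA at these places can lie in an enhancer or in the promoter of a neighbouring gene as well as in the host gene's own control region. In the text below, the host is the gene whose transcript the annotation names for the class, and may differ from the gene with the nearest TSS.

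The NFI full site was searched for as TGGC and GCCA with 5 bases between them, on both strands, in 200 bp centred on each peak, with at most 1 mismatch over the 8 fixed bases. The motif counts rest on sites with at most 1 mismatch, which 282 end peaks held, and 74 held a site without mismatch. The sites below had no mismatch and are shown as examples. They came from the named peaks with the highest scores, from the genes with 2 end peaks and from the gene lists described later. They are read from the plus strand of GRCm38 (mm10), with 8 bases on each side of the site, and capitals mark the 8 fixed bases. They lie at chr3:89233857-89233885 (*Trim46*), chr4:95050054-95050082 (*Jun*), chr5:120628843-120628871 (*Ddx54*), chr19:7423514-7423542 (*Mir6991*), chr15:83118508-83118536 (*Rrp7a*), chr8:3609714-3609742 (*Camsap3*), chr7:99920565-99920593 (*Rnf169*) and chr15:80257708-80257736 (*Atf4*). The sites of *Jun* and *Rnf169* are in a 3′ UTR, and the others are in the TTS class.
Trim46: ccgggcccTGGCcctcaGCCAccccaccc
Jun: ctgctctcTGGCtccacGCCAaagccagg
Ddx54: tttccagcTGGCtccctGCCAgcctggtg
Mir6991: gttctgtgTGGCttcacGCCAgcgggcgc
Rrp7a: tggctcccTGGCtctgtGCCAgggagcgg
Camsap3: ctggtgttTGGCctttaGCCAgggataca
Rnf169: gtaacaggTGGCctaaaGCCAacagacaa
Atf4: gttcatacTGGCtttgtGCCAgatagctg

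Of the end peaks, 467 matched a transcript of the RefSeq copy used here, and the host of the other, *Gm7616*, was not in it. TTS peaks lay at a median of 392 bp past the end of the host transcript, with quartiles of 183 and 696 bp. Of 288 matched TTS peaks, 282 were within -100 to 1000 bp of that end, 15 of them before it and 145 in the first 500 bp after it. Another 122 were from 500 to 1000 bp past the end, so the peaks were spread over the whole window. The other 6 lay outside the window of the transcript in this copy. Peaks in 3′ UTRs lay at a median of 855 bp past the stop codon and at -1081 bp from the transcript end (quartiles -1786 and -471 bp). All 179 were between the stop codon and the end of the host transcript. When the UTR was cut into 4 equal stretches from the stop codon to the end, these held 50, 51, 45 and 33 of them, and the median UTR, introns included, was 2363 bp long. The last 100 bp before the end belong to the TTS class by rule, so the last stretch could hold fewer 3′ UTR peaks. When the classes were set again from RefSeq, 493 peaks fell in the end window or a 3′ UTR, among them 465 (99.4%) of the authors' end peaks.

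**Figure D1:**
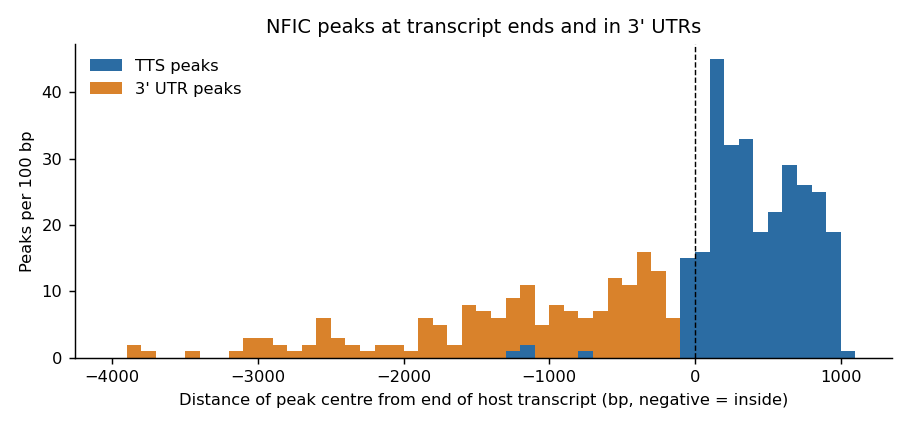
Number of NFIC peaks per 100 bp (vertical axis) by the distance of the peak centre from the end of the host transcript in bp (horizontal axis, negative inside the transcript), with TTS peaks in blue stacked on 3′ UTR peaks in orange and a dashed line at the transcript end. TTS peaks fill the window from -100 to 1000 bp, and 3′ UTR peaks reach back over several kb. Not drawn are 6 peaks beyond -4000 bp, among them a TTS peak at -4271 bp.

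Whether peaks were denser at transcript ends depended on the flanks with which the ends were compared. Around 12452 ends of protein-coding genes with no TSS within 6 kb, 211 peaks of any class lay within 1 kb of the end, 96 before it and 115 after it. A peak near several ends was counted once, at its nearest end, and the length compared was not reduced for this. Flank counts can therefore be too low and the ratios too high, by an amount that was not measured. The flanks 4 to 5 kb away held 156 peaks over the same nominal length, a ratio of 1.35 (95% interval 1.09 to 1.67, two-sided exact binomial test, p = 0.00475, adjusted p = 0.0111 over 7 tests by Benjamini-Hochberg). This call ended when the flanks were taken 3 to 4 kb away, where 204 peaks gave a ratio of 1.03 (0.849 to 1.26, exact binomial p = 0.768). The densest 500 bp were those just past the end, at 11.1 peaks per kb per 1000 ends (8.62 to 14.0, exact Poisson interval), but the bin from 2000 to 2500 bp past the end had 10.1 (7.78 to 12.9). The 500 bp before the end had 7.07 (5.13 to 9.49), which overlaps both.

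**Figure D2:**
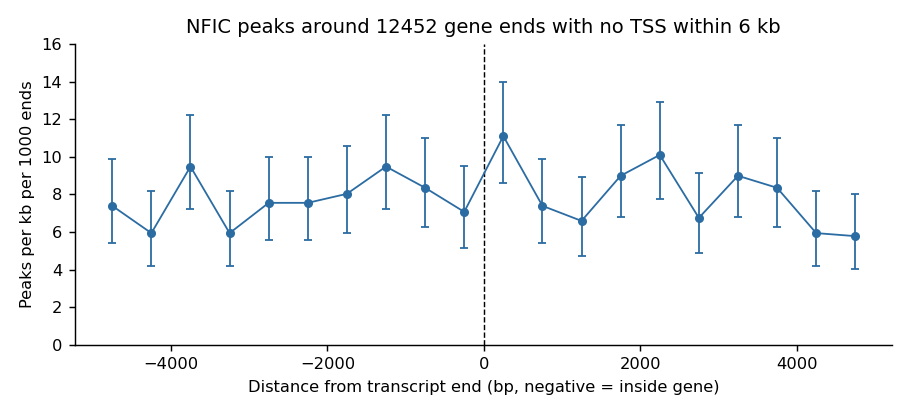
Peaks per kb per 1000 ends (vertical axis, points with 95% Poisson intervals) in bins of 500 bp by distance from the transcript end in bp (horizontal axis, negative inside the gene), for all peaks of the list around 12452 protein-coding gene ends with no TSS within 6 kb. The bin just past the end is the highest at 11.1, and its interval overlaps those of all other bins but 4, which lie from 3000 to 5000 bp away. Each peak is counted once, at its nearest end, which can lower the outer bins.

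The TTS peak with the highest score, 33.7, lay 390 bp past the end of *Trim46* (chr3:89233701-89233873), a gene for a microtubule-organising protein of axons. Within 1 kb of the same peak, on the opposite strand, is the end of *Muc1*, which encodes a transmembrane mucin of the apical surface of epithelia and has the nearest TSS, 4731 bp away. The peak's window held 3 NFI full sites, one of them without mismatch (shown above). The next peaks by score were at *Mtf1*, the metal-responsive factor that induces metallothioneins (24.9, at -89 bp from the end), and *Ddx54*, an RNA helicase gene (24.1, 309 bp past the end). Both also lay within 1 kb of an opposite gene end, those of *1110065P20Rik* and *Cfap73*. The peak at *Extl1*, a heparan sulphate glycosyltransferase gene (23.1, 464 bp past the end), had *Slc30a2*, a zinc transporter gene, as its nearest TSS at 12443 bp. *Mir6991* had 22.5, with 3 full sites, *2310030G06Rik* had 21.3, and *Rrp7a*, a gene of ribosomal RNA processing, had 19.1 with its centre at -33 bp from the end. *Wiz*, which encodes a zinc finger partner of histone methyltransferases, also had 19.1. All 8 windows held at least 1 NFI full site, and in 4 of them a site had no mismatch, beside 51.8% and 13.4% of all peaks in the list. The share was higher at higher scores in end peaks and in other peaks, and no test of these few peaks was made.

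The highest score among 3′ UTR peaks, 30.5, was at *Jun*, which encodes a subunit of the AP-1 factor. This peak (chr4:95049993-95050165) was centred 188 bp past the stop codon of a gene with 1 exon, 2143 bp from its TSS, and held 1 full site, without mismatch. It was followed by *Vps37b*, an ESCRT-I subunit (27.3, at -321 bp from the end), *Clec9a*, a lectin of dendritic cells (23.1), and *Trp53bp2*, which encodes a p53-binding protein (19.1). *Pnmal2* had 18.9, *Bcl9l*, a coactivator of beta-catenin, had 18.7, and *Gcgr*, the glucagon receptor gene, had 18.5 with a peak 13 bp past the stop codon and 3 full sites. *C1qtnf1*, which encodes a secreted protein, and *Slc25a10*, a mitochondrial dicarboxylate carrier, were tied at 17.7. A full site was in the window of 8 of these 9 peaks, *Trp53bp2* being the exception, and only that of *Jun* had no mismatch, beside the same 51.8% and 13.4% of the list.

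The end peaks were hosted by 459 genes, and no gene hosted more than 2. The 9 genes with 2 included *Clec9a*, *Csrnp1*, *Camsap3*, *A430057M04Rik*, *Rnf169*, *Smad3*, *Brsk2* and *Magi2*. At *Camsap3*, a gene for a protein of microtubule minus ends, the peaks were 159 and 616 bp past the end, with scores of 9.96 and 11.6. At *Rnf169*, a ubiquitin ligase gene of the DNA damage response, they were at -322 and -2262 bp from the end, with scores of 8.56 and 7.17 and 2 full sites each. *Smad3*, a transducer of TGF-beta signals, had peaks with scores of 7.57 and 5.18 in its 3′ UTR. *Csrnp1*, a nuclear protein gene, had scores of 18.9 and 11.6 past its end. Another peak within 1 kb was found for 25 end peaks (5.34%), beside 5.28% of other peaks.

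**Figure D3:**
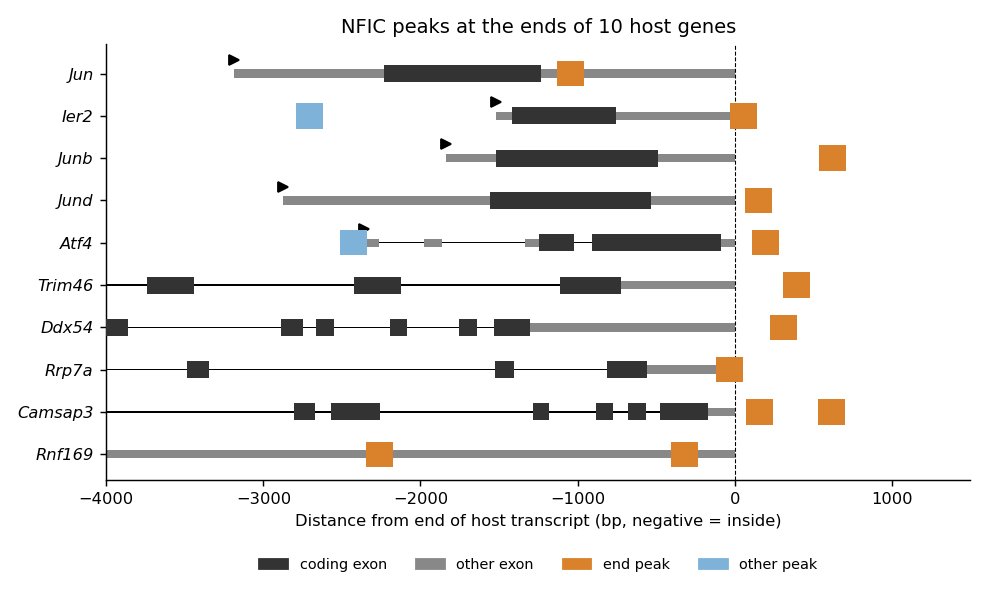
Map of 10 host genes over 4000 bp before and 1500 bp after the transcript end (horizontal axis, bp, dashed line at 0), all drawn left to right in the direction of transcription, with coding exons in black, other exons in grey, end peaks in orange, other peaks in blue and a triangle at the TSS where it falls in the window. *Jun*, *Ier2*, *Junb* and *Jund* have 1 exon, with end peaks from 1043 bp before to 619 bp after the end and 1 other peak upstream of *Ier2*, and *Camsap3* and *Rnf169* have 2 end peaks each.

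The host was the gene with the nearest TSS for 228 of 468 end peaks (48.7%, 95% Wilson interval 44.2 to 53.2). This share was 51.6% in the TTS class (149 of 289) and 44.1% in the 3′ UTR class (79 of 179). For the other 240, the list names another gene, and 121 of these peaks were upstream of that gene's TSS, 44 of them within 5 kb. In 46 cases the named gene was non-coding. Of 458 hosts with a gene identifier, 99 (21.6%) were the nearest gene of no peak anywhere in the list, so a list of bound genes made from the nearest TSS leaves them out. *Vps37b* is assigned to *Mir7032*, *Wiz* to *Akap8l*, *2310030G06Rik* to *Dixdc1* and *Trib3*, a pseudokinase gene induced by ER stress, to *Rbck1*.

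A RefSeq TSS lay within 1 kb of 42 end peaks (8.97%), 41 of them in the TTS class, beside 28.7% of other peaks. For 21 end peaks it was the TSS of another gene, as at *Mtf1*. The TSSs counted include the annotated starts of short miRNA and snoRNA hosts, where start and end lie close together. *Mir6991*, for example, is 70 bp long, and its start is 926 bp from the peak. Whether a promoter lies at such a start was not tested, and these peaks were also left out in the settings without peaks near a TSS. The opposite-strand end of another gene was within 1 kb of 50 end peaks (10.7%), 49 of them in the TTS class (17.0% of it). For TTS peaks with a protein-coding host the share was 18.9%, beside 11.3% of positions taken every 100 bp from -100 to 1000 bp around the ends of all 21000 protein-coding genes, a description with no test. These peaks near converging gene ends had a median score of 7.67. An NFI full site was in 34 of the 49 TTS peaks near such an end (69.4%), beside 59.6% of the 240 TTS peaks away from one. Beside *Trim46* and *Muc1* they include *Camsap3* and *Xab2*, and *Cfb*, the complement factor B gene, with *Nelfe*. The polyadenylation signals AATAAA or ATTAAA were in the window of 10.4% of TTS peaks on the strand of the host and 8.65% on the opposite strand. In 3′ UTR peaks the shares were 8.38% and 7.26%, beside 8.34% per strand in other peaks, and no test of these shares was made. Protein-coding genes hosted 422 end peaks, lncRNAs 23, miRNAs 18 and snoRNAs 4. The highest scores at non-coding hosts other than *Mir6991* were 18.7 at *Gm20735* and 14.9 at *Gm15441*, which lies beside *Txnip*, a gene for an inhibitor of thioredoxin.

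Among all 21000 protein-coding genes of the annotation, 413 hosted an end peak (1.97%). Of these hosts, 76 (18.4%) also had a promoter peak, beside 14.2% of all protein-coding genes, and 2.55% of the genes with a promoter peak hosted an end peak. The median span of the longest transcript was 17748 bp for the hosts and 16722 bp for all protein-coding genes. End peaks were 4.42% of the peaks on chromosome 7 (Wilson interval 3.34 to 5.83), 4.35% on chromosome 11 (3.36 to 5.60) and 4.32% on chromosome 9 (3.19 to 5.83). The lowest share on an autosome was 1.51% on chromosome 13 (0.824 to 2.76), and 3 of 171 peaks on chromosome X were end peaks (1.75%, 0.598 to 5.03).

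None of the listed genes of acinar function hosted an end peak. All 16 listed acinar transcription factors and 23 of 37 genes for digestive enzymes and other secretory proteins were the nearest gene of some peak, as were 37.2% of all protein-coding genes, and 0 of either list hosted an end peak, beside the background of 1.97%. Nor did the 4 NFI genes, the 19 circadian genes, the 84 ribosomal protein genes, the 18 islet genes or the 13 stroma genes. By the same measure, some peak was found for 4 NFI, 15 circadian, 26 ribosomal protein, 6 islet and 4 stroma genes. With so low a background, a count of 0 in lists of this size says little about the list. Cell types are not resolved in whole pancreas, and the marker lists are used as gene lists only.

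Immediate early genes, which are transcribed within minutes of a stimulus, had the largest share among the lists, with 4 of 24 (16.7%) hosting an end peak, beside 1.97% of all protein-coding genes, and 21 of 24 having some peak, beside 37.2%, a description of which no test was made. Beside *Jun* they were *Ier2* (score 16.3, 57 bp past the end), *Junb* (8.96, 619 bp past the end) and *Jund* (8.76, 150 bp past the end). *Ier2* also had a peak of the intergenic class upstream of its TSS (9.36, at -2709 bp from the end). *Ier2* encodes a nuclear regulator of transcription, and the 3 *Jun* genes encode AP-1 subunits. All 4 are genes with 1 exon, of 1522 bp (*Ier2*), 1840 bp (*Junb*), 2878 bp (*Jund*) and 3187 bp (*Jun*), so these peaks were also within 3027 bp of the gene's own TSS, which was the nearest TSS in all 4. Only the peak of *Jun* held an NFI full site, and the others held neither a full site nor an arm. Of the end peaks, 19 had a protein-coding host with 1 exon, a count given without the share of such genes among all protein-coding genes.

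The lists not yet described had 1 to 3 hosts each, beside the same background of 1.97%. Hosts were 2 of 38 genes (5.26%) of the unfolded protein response and ER folding, 3 of 29 autophagy genes (10.3%), 1 of 10 duct genes, 1 of 15 immune genes (6.67%) and 3 of 103 histone genes (2.91%). Some peak was found for 29, 20, 6, 2 and 16 genes of these lists, beside 37.2% of all protein-coding genes. With so few hosts a share rests on single genes, and no test was made. Among the genes of the unfolded protein response and ER folding, *Atf4*, which encodes a transcription factor of the integrated stress response, had a peak 197 bp past its end (8.17, with the site shown above), and *Trib3* had one 340 bp past its end (6.17). *Atf4* also had a promoter peak with a score of 9.76. Among autophagy genes, hosts were *Atg12*, a ubiquitin-like conjugation factor (8.17), *Map1lc3a*, which encodes an LC3 protein of the autophagosome membrane (4.78), and *Wipi2*, a phosphoinositide-binding effector (3.78). *Sox9*, a transcription factor of duct cells, was the single host among duct genes (4.58, 836 bp past the end), and *Cfb* the single one among immune genes (6.57). Of the histone genes, *H3f3b* (5.98), *H2ax* (5.18) and *H2bc14* (3.98) hosted a peak. Scores of these hosts, *Atf4* and *Atg12* apart, were at or below the list median of 6.57.

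The score of end peaks was not shown to differ from that of other peaks. Shares of peaks are compared below as odds ratios with 95% intervals and two-sided tests. Their score, which is on the authors' own scale, had a median of 6.97 with quartiles of 5.18 and 9.96 and a range of 3.39 to 33.7, beside 6.57 in other peaks, with quartiles of 4.98 and 9.16. A score at or above the list median was found for 55.6% of end peaks and 51.5% of other peaks, and for 51.6% of the whole list (odds ratio 1.18, 95% interval 0.977 to 1.42, Fisher's exact p = 0.0909, adjusted p = 0.159 over 7 tests). With the upper quartile of the list as the limit the odds ratio was 1.26 (Fisher's exact p = 0.0312, not adjusted). The focus ratio, in HOMER the fraction of the tags of a peak that lie on the side of its centre that their strand predicts, had a median of 0.688 in end peaks and 0.684 in other peaks (odds ratio of a value at or above the list median 1.08, 0.902 to 1.30, Fisher's exact p = 0.398, adjusted p = 0.496).

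Base composition depended on what the end peaks were set beside. The median GC content of the 200 bp windows was 54.0% in both end peaks and other peaks (odds ratio of a value at or above the list median 1.08, 0.899 to 1.30, Fisher's exact p = 0.425, adjusted p = 0.496). Promoter peaks had a median of 65.0% and peaks in exons and 5′ UTRs 64.5%, whereas it was 52.0% in introns and 51.5% in intergenic DNA. When peaks with a TSS within 1 kb were left out, the odds ratio was 1.84 (Fisher's exact p = 9.54e-10). End peaks thus lay between promoter peaks and distal peaks in GC content.

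An NFI full site was found in 282 of 468 end peaks (60.3%, 95% Wilson interval 55.8 to 64.6) and in 51.5% of other peaks (odds ratio 1.43, 1.18 to 1.72, Fisher's exact p = 2.02e-04, adjusted p = 0.00141 over 7 tests). The share in the whole list was 51.8%. Promoter peaks had the lowest share, 36.0%, from which end peaks differed most (odds ratio 2.70, 2.21 to 3.29, Fisher's exact test adjusted over 4 classes, p = 1.37e-22). Exon and 5′ UTR peaks had 49.4% (odds ratio 1.56, 1.23 to 1.97, Fisher's exact adjusted p = 5.28e-04) and intergenic peaks 55.2% (1.23, 1.01 to 1.49, adjusted p = 0.0483). Intron peaks had 56.9%, and the odds ratio against them was 1.15 (0.949 to 1.39, Fisher's exact adjusted p = 0.161). Within bins of 5 points of GC content the odds ratio stayed past the threshold of 0.05 against promoter peaks (2.10, Mantel-Haenszel chi-square test) but not against intergenic peaks (1.18, p = 0.0902) or exon and 5′ UTR peaks (1.03, p = 0.817). Against all other peaks it was 1.29 within GC bins (1.07 to 1.56, Mantel-Haenszel chi-square test, adjusted p = 0.0437 over 12 motifs) and kept the call. The call against all other peaks ended without the peaks that have a TSS within 1 kb (1.17, Fisher's exact p = 0.123) and with no mismatch allowed (1.22, p = 0.130). A site without mismatch was in 74 end peaks (15.8%), in 13.3% of other peaks and in 13.4% of the list.

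**Figure D4:**
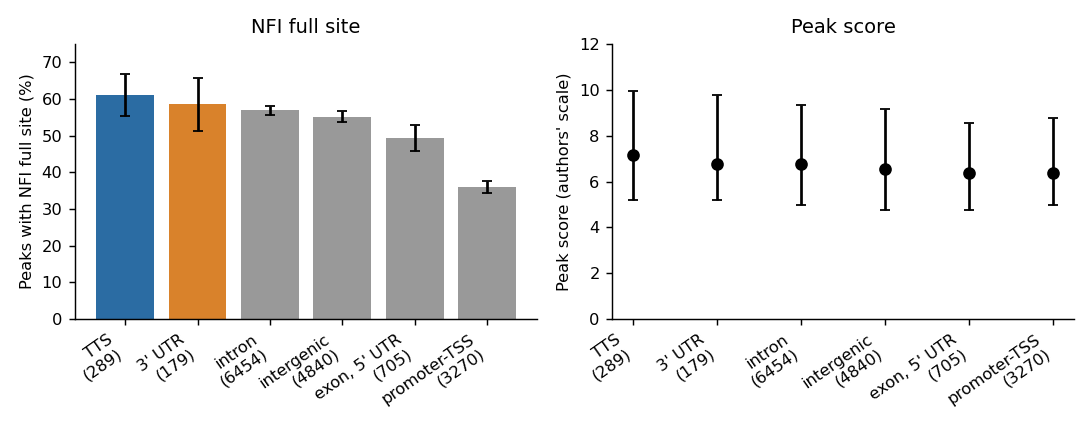
Left, percentage of peaks with an NFI full site in 200 bp around the centre (bars from 0, with 95% Wilson intervals), and right, median peak score on the authors' scale with lines to the quartiles, both for 6 classes of genomic element with the number of peaks in parentheses. TTS (61.2%) and 3′ UTR peaks (58.7%) have shares close to those of intron and intergenic peaks and above that of promoter peaks (36.0%), and the score quartiles of all classes overlap.

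The site was present in 61.2% of TTS peaks and 58.7% of 3′ UTR peaks (odds ratio 1.11, 0.762 to 1.63, Fisher's exact p = 0.627), an interval that leaves room for a difference either way. Within the end peaks, those with a score at or above the list median had a site in 66.5% of cases and those below it in 52.4% (odds ratio 1.81, 1.24 to 2.63, Fisher's exact p = 0.00233, adjusted p = 0.00814 over 7 tests). The same comparison in other peaks gave 59.2% and 43.4% (odds ratio 1.90), and the ratio of the 2 odds ratios was 0.952 (two-sided Wald chi-square test, p = 0.802). The rise of the site share with score was not shown to differ between end peaks and other peaks. With no mismatch allowed, or with peaks of a focus ratio at or above the list median only, the odds ratio within end peaks was 1.38 or 1.57 and not past the threshold. Of the 341 full sites in end peaks, 77.7% were centred within 50 bp of the peak centre, beside 76.6% in other peaks. At least 2 sites were found in 49 end peaks, an arm (TTGGCA, which can overlap a full site) without a full site in 76 (16.2%), and neither in 110 (23.5%). No share over other peaks is given for these counts, so they do not set end peaks apart.

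The other 11 motifs were searched as fixed letters on both strands of the same windows, where a match is a description and not a bound site. The CTCF motif, searched as CCA, 2 bases, AG, 2 bases and GGC, was the one motif past the threshold in the same direction in the main comparison, within GC bins and without peaks near a TSS. It was found in 42 end peaks (8.97%), in 5.09% of other peaks and in 5.21% of the list (odds ratio 1.84, 1.33 to 2.54, by Fisher's exact test an adjusted p = 0.00233 over 12 motifs). CTCF is the zinc finger protein that anchors chromatin loops. Within bins of GC content the odds ratio was 1.75 (Mantel-Haenszel chi-square test, adjusted p = 0.00822), and without peaks near a TSS it was 1.74 (Fisher's exact adjusted p = 0.0167). Among peaks with a score at or above the list median it was 1.53 and no longer past the threshold (Fisher's exact adjusted p = 0.210). Set against single classes, a comparison chosen after the shares were seen, end peaks held the motif more often than promoter peaks (3.70%, odds ratio 2.57, Fisher's exact adjusted p = 9.75e-06 over 4 classes), intron peaks (4.54%, 2.07, adjusted p = 1.54e-04) and exon and 5′ UTR peaks (5.53%, 1.68, adjusted p = 0.0340). Against intergenic peaks, with 6.71%, the odds ratio was 1.37 (0.978 to 1.92, Fisher's exact adjusted p = 0.0698).

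The 42 end peaks with a CTCF motif were 28 TTS peaks (9.69% of the class) and 14 3′ UTR peaks (7.82%). Their median score was 6.37, beside 6.97 for end peaks without it, with a range of 3.39 to 27.3. In 20 of them (47.6%) an NFI full site was also present, beside 60.3% of all end peaks and 51.8% of the list, and in 6 a CTCF match overlapped it. The match was centred within 50 bp of the peak centre in 26. The 5 with the highest scores are shown as the sequences behind this count, on the plus strand of mm10 with 8 bases on each side and the 8 fixed bases in capitals. They lie at chr5:124005027-124005054 (*Vps37b*), chr15:83118556-83118583 (*Rrp7a*), chr4:155834005-155834032 (*Aurkaip1*, 967 bp past the end, score 18.7), chr11:118451307-118451334 (*C1qtnf1*) and chr3:98313118-98313145 (*Phgdh*, 125 bp past the end, score 13.5). *Aurkaip1* encodes a mitochondrial ribosomal protein and *Phgdh* the first enzyme of serine synthesis. The matches of *Vps37b* and *Phgdh* are on the minus strand.
Vps37b: ggctcgcaGCCctCTtcTGGgaacaggt
Rrp7a: aacagcttCCAgcAGatGGCactgcttt
Aurkaip1: actagtgaCCAtaAGggGGCagcaacca
C1qtnf1: tccacctaCCAgcAGttGGCttggaagc
Phgdh: ctgtgggcGCCctCTgcTGGcctttctg

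Among motifs of acinar factors, the E-box (CAGATG or CAGCTG, the letters read by PTF1A and MIST1) was in 39.7% of end peaks, 32.2% of other peaks and 32.5% of the list (odds ratio 1.39, 1.15 to 1.67, by Fisher's exact test an adjusted p = 0.00233 over 12 motifs). Within GC bins this odds ratio was 1.23 (Mantel-Haenszel chi-square test, adjusted p = 0.137), and without peaks near a TSS it was 1.14 (Fisher's exact adjusted p = 0.405). The E-box kept its call in a window of 100 bp (1.55, Fisher's exact adjusted p = 4.64e-04) and in the upper 2 quartiles of score (1.46, adjusted p = 0.0416). The GATA motif (GATAAG) was in 47 end peaks and 7.75% of the list, and the NR5A2 motif (TCAAGGTCA, TCAAGGCCA, CCAAGGTCA or CCAAGGCCA) in 5.13% and 3.65%. The RBPJ motif (TGGGAA) was in 20.3% and 20.9%, and the FOX motif (TATTTAC or TGTTTAC) in 5.13% and 6.38%. The HNF1 motif (GTTAAT and ATTAAC with 1 base between them, at most 1 mismatch) was in 0 of 468 end peaks, which allows a share of up to 0.641%, and in 0.278% of the list. None of these 5 motifs passed the threshold, the adjusted p-values of Fisher's exact tests being 0.130 for GATA, 0.174 for NR5A2, 0.843 for RBPJ, 0.437 for FOX and 0.786 for HNF1.

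The GC-rich SP motif (GGGCGG) was less frequent, in 13.5% of end peaks, 21.3% of other peaks and 21.1% of the list (odds ratio 0.575, 0.439 to 0.752, by Fisher's exact test an adjusted p = 2.96e-04 over 12 motifs). Its direction turned when peaks with a TSS within 1 kb were left out (1.64, Fisher's exact adjusted p = 0.0167), and within GC bins the odds ratio was 0.811 (Mantel-Haenszel chi-square test, adjusted p = 0.340). The ETS motif (CCGGAAGT), another motif of promoters, was in 1 end peak (0.214%) and 1.26% of the list (Fisher's exact adjusted p = 0.0794). The AP-1 motif (TGACTCA) was in 3.63% and 3.65%, and the NFI arm in 34.6% and 33.6% of end peaks and of the list, neither past the threshold.

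**Figure D5:**
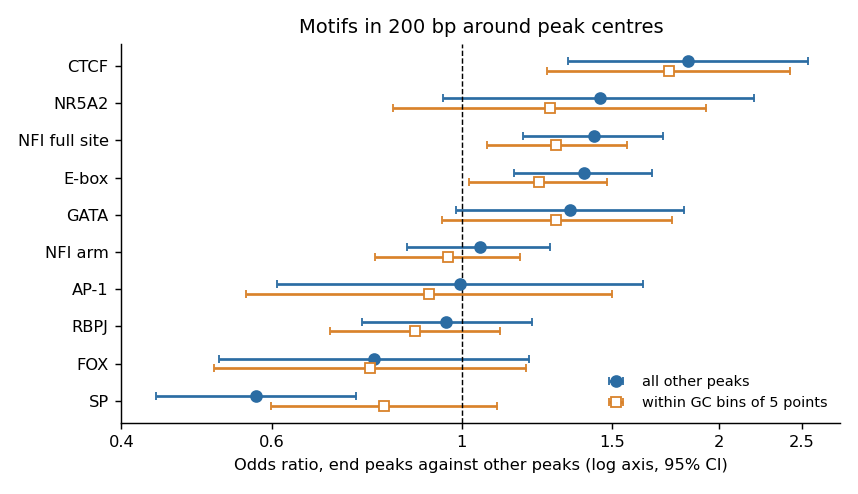
Odds ratio of a motif in end peaks against other peaks (horizontal log axis, with 95% intervals) for the 10 motifs found in at least 10 end peaks, unadjusted (filled blue circles) and within bins of 5 points of GC content (open orange squares), with a dashed line at 1. CTCF is highest in both at 1.84 and 1.75, and SP moves from 0.575 to 0.811 within GC bins, and turns to 1.64 without peaks near a TSS, which is not drawn.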

How the data were processed

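The authors made NFIC ChIP-Seq libraries from whole mouse pancreas, and the submitters' processing notes name BWA, Picard, MACS2 and mm10. In the paper's methods, reads were aligned and peaks called with RUbioSeq+, and HOMER is named for merging, calling and annotating peaks. The sources thus differ on the peak caller behind the score. Versions and thresholds for alignment, peak calling and annotation are not given in the sources used here. The deposited peak score is on a scale that no source names, the deposited focus ratio is a fraction, and the deposited distance to the TSS is in bp, negative upstream. There are 0 columns per sample, so the depth is unknown.

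Peak classes, hosts and scores were taken from the list. Transcript ends and sequences came from a RefSeq copy of GRCm38.p6, whose release may differ from the authors' annotation. Counts of peaks were compared by two-sided Fisher's exact tests or an exact binomial test, with odds ratios common to bins of GC content by the Mantel-Haenszel method. P-values were adjusted by the Benjamini-Hochberg method over 7 single comparisons, 4 classes or 12 motifs, with a threshold of 0.05. For the count of 0, the upper limit is 3 peaks of the total. The steps were tested on simulated data. Members, gene lists and tests were chosen with earlier results of these data known, and the ribosomal and histone lists were made by symbol after the list had been read. Named genes are hosts of the 8 highest scores in each class with ties, genes with the most end peaks, where 9 tied genes exceeded a limit of 8 and 1 is not reported here, and members of the gene lists. Those named for converging ends, non-coding hosts, hosts that differ from the nearest gene and CTCF motifs were chosen after their values were seen. Alternatives are given in the closing section. Computations used Python 3.11.15 with scipy 1.17.1, statsmodels 0.14.6, pandas 2.3.3, matplotlib 3.10.9 and numpy 2.4.6.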

Additional observations from a re-analysis of the deposited data

How the results depend on the processing

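No paired analysis was possible because the list holds no value per library, and for the same reason no library could be left out. Values below are odds ratios of end peaks against other peaks unless named, and where a call was lost the cause was not tested. With no mismatch allowed, the odds ratio of the NFI full site was 1.22 against all other peaks, 1.04 against intergenic peaks, 1.30 against exon and 5′ UTR peaks and 1.38 by score within end peaks, all no longer past the threshold, and against intron peaks it reversed to 0.969. It lost its call for 3′ UTR peaks alone (1.34), without peaks near a TSS (1.17), among peaks in the upper 2 quartiles of score against intergenic (1.31) and exon and 5′ UTR peaks (1.29), within GC bins against the same classes (1.18 and 1.03), and by score within end peaks of high focus ratio (1.57). TTS against 3′ UTR peaks reversed to 0.902 in a window of 100 bp. The focus ratio reversed to 0.888 at the upper quartile and 0.938 without peaks near a TSS. The score passed the threshold at its upper quartile (1.26), and GC content without peaks near a TSS (1.84). Peak density at ends fell to a ratio of 1.03 with flanks 3 to 4 kb away. Of 12 motifs, 4 passed the threshold, 1 in the upper 2 quartiles of score (the E-box), 2 within GC bins and 2 without peaks near a TSS. Reversed motifs were the NFI arm (0.888 in the upper 2 quartiles, 0.963 within GC bins, 0.855 without peaks near a TSS), RBPJ (1.07 in the upper 2 quartiles), AP-1 (1.20 in a window of 100 bp, 1.03 in the upper 2 quartiles) and SP (1.64 without peaks near a TSS). The upper 2 quartiles of score held 260 end peaks and 254 host genes. GC bins for single classes, motifs without peaks near a TSS and the CTCF motif by class were added after seeing the data.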
